A study of Mus musculus with 8 samples.

Results

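The genes described here are the cytosolic chaperones Hsp90aa1 and Hsp90ab1, 7 of their co-chaperones (Stip1, Cdc37, Ahsa1, Fkbp4, Ppid, Ptges3 and Chordc1) and Hsf1, the transcription factor that Hsp90 restrains. They were taken by symbol, 10 rows among the 43346 of the deposited gene table, and all 10 passed the filter on low counts that left 20987 genes for testing. Each library was made from cortex with hippocampus, taken at 1.5 months of age. One group of 4 mice had the genotype GFP and the other, also of 4, the genotype GFP-GR100, in which GFP is fused to 100 glycine-arginine repeats. Both genotypes therefore include GFP, whose expression was not examined here. Each group holds 2 females (replicates 1 and 2) and 2 males (replicates 3 and 4), with 1 library per mouse. The fusion was built in an adeno-associated virus plasmid. Which promoter drove it, how it was delivered and which cells carried it is not stated.

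Hsp90 is a dimeric chaperone that uses ATP to fold and activate client proteins, among them many kinases and the steroid hormone receptors. Stip1 (also called Hop) hands clients over from Hsp70, Cdc37 brings kinases, Ahsa1 speeds up ATP hydrolysis, Ptges3 (p23) holds the closed late state, and Fkbp4 and Ppid are peptidyl-prolyl isomerases found in receptor complexes. Hsp90aa1 is the stress-inducible gene of the pair and Hsp90ab1 the constitutive one. Hsf1 is kept inactive by Hsp90 and, once released, turns on genes of chaperones. Poly(GR), made from the C9orf72 repeat expansion of frontotemporal dementia and amyotrophic lateral sclerosis, is an arginine-rich peptide that disturbs translation and stress granules.

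Library totals ran from 65880460 to 89113010 counts. Loci that carry ribosomal RNA sequence (Yam1, AY036118 and Lars2) took 11.4% and 6.74% of the total in females with GFP, 8.77% and 9.83% in males with GFP-GR100, and 2.76% to 3.798% in the other 4 libraries. This share was thus split across sex in opposite ways in the groups. The tissue from GFP-GR100 mice weighed 71.9 to 85.1 mg and that from GFP mice 111.4 to 126.6 mg. All 10 markers of excitatory neurons and all 9 hippocampal markers found in the table had counts in every library. Summed markers of all neurons lay between 8446 and 9150 CPM (normalised counts scaled to a common library size) in GFP and between 7122 and 8289 CPM in GFP-GR100, and 0 of these 10 markers passed the test (5 were lower at an unadjusted p under 0.05). For 9 of the 10 the log2 fold change was negative, with a median of -0.19 (-0.11 in females and -0.30 in males). For 10 microglial markers the sums were 400.4 to 556.3 CPM in GFP and 696.4 to 784.3 CPM in GFP-GR100, and 8 of the 10 rose, where 2.19% of all tested genes rose. For 10 markers of reactive astrocytes they were 267.8 to 424.2 and 698.5 to 731.1 CPM, and 4 rose. Choroid plexus markers summed to 129.7 to 370.7 CPM in GFP and 33.28 to 89.96 CPM in GFP-GR100, and 3 of 10 fell. Ependymal markers summed to 30 to 50.13 CPM in GFP and 25.8 to 29.84 CPM in GFP-GR100, ranges that nearly touched, and 3 of 10 fell. Of all tested genes 0.324% fell. All 10 oligodendrocyte markers had a negative log2 fold change (median -0.28), 0 passed, and their sums overlapped. In bulk tissue fewer cells of a type and less RNA per cell cannot be told apart, and the part of these shifts in the results below was not tested.

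Per unit of gene length, Hsp90ab1 was by far the most abundant member. Its deposited RPKM (reads per kilobase of the gene length listed in the table, scaled to library size) was 508.1 ± 63.03 in GFP and 433.3 ± 57.63 in GFP-GR100 (SD, n = 4 each). Hsp90aa1 followed at 137.8 ± 4.818 and 123.0 ± 6.559 RPKM. The ranges of these genes over the 8 libraries did not overlap with each other or with the next gene. Ahsa1 (65.1 to 107.6 RPKM), Stip1 (55.4 to 93.6), Cdc37 (39.2 to 62.5), Fkbp4 (33.4 to 53.2) and Ptges3 (31.0 to 46.9) formed a middle tier, in which each gene overlapped with its neighbour in the order. Chordc1 (16.3 to 25.5 RPKM) stood clear of Ptges3 above it and of Ppid (12.05 to 15.7) below it. Hsf1, at 10.98 to 17.4 RPKM, overlapped with Ppid, and their order turned between groups: the means were 14.3 ± 2.75 for Hsf1 and 14.11 ± 1.40 for Ppid in GFP, and 12.34 ± 0.908 and 13.37 ± 0.984 in GFP-GR100 (SD, n = 4 each). The constitutive gene was therefore present at 3.03 to 4.02 times the level of the inducible one, and every co-chaperone at a lower level than either Hsp90 gene.

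**Figure D1:**
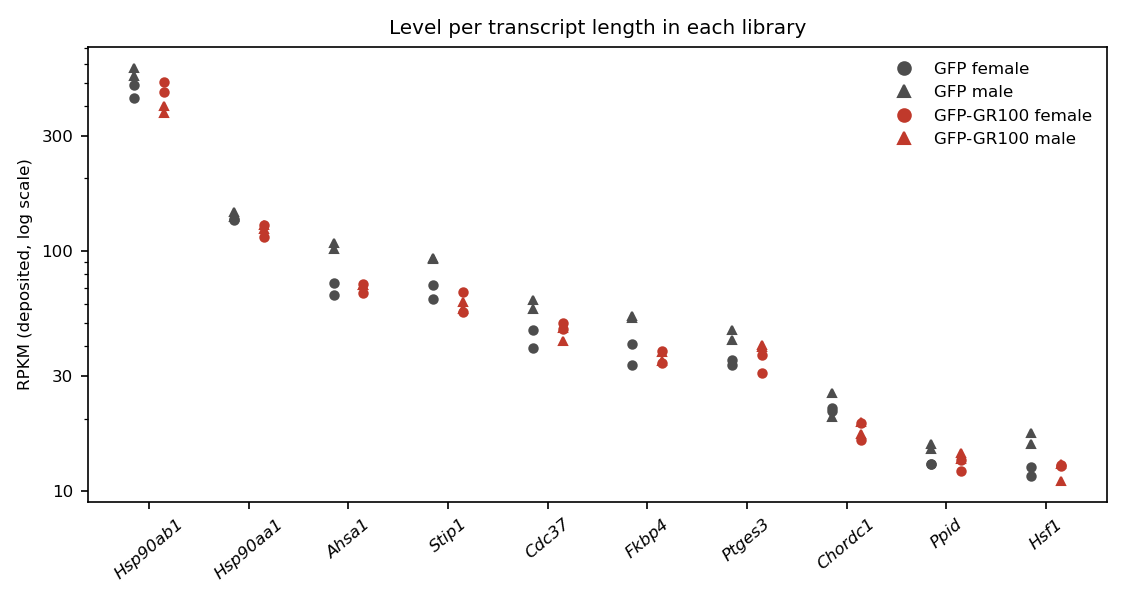
Deposited RPKM of the 10 genes in each library on a log axis, ordered by mean level, with GFP in grey, GFP-GR100 in red, circles for females and triangles for males. Hsp90ab1 lies between 374.7 and 578.7 RPKM and Hsp90aa1 between 113.6 and 144.4 RPKM in all 8 libraries, and Hsf1 and Ppid share the lowest levels.

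The comparison of GFP-GR100 with GFP asked whether this chaperone system shifts with poly(GR). Stip1 fell, and the other 9 genes did not pass the edgeR test across all genes. For all 10 the log2 fold change was negative, from -0.46 for Stip1 to -0.14 for Ppid, with a median of -0.28, where the median of all tested genes was -0.02. Thus 1 of 10 members fell and 0 rose, while 0.324% of tested genes fell, 2.19% rose and 2.52% passed in either direction. At an unadjusted p under 0.05, 7 members were lower, where 7.37% of tested genes were lower, and 0 were higher, where 8.23% were. In CPM, the 4 GFP-GR100 values lay below all 4 GFP values for Hsp90aa1, Stip1 and Chordc1, and 3.03% of tested genes showed this. For 0 members did all GFP-GR100 values lie above GFP, as they did for 5.03% of tested genes. Among the 10836 tested genes with a mean of at least 10 CPM, as all members have, 7250 had a log2 fold change below 0 and the median was -0.06.

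**Figure D2:**
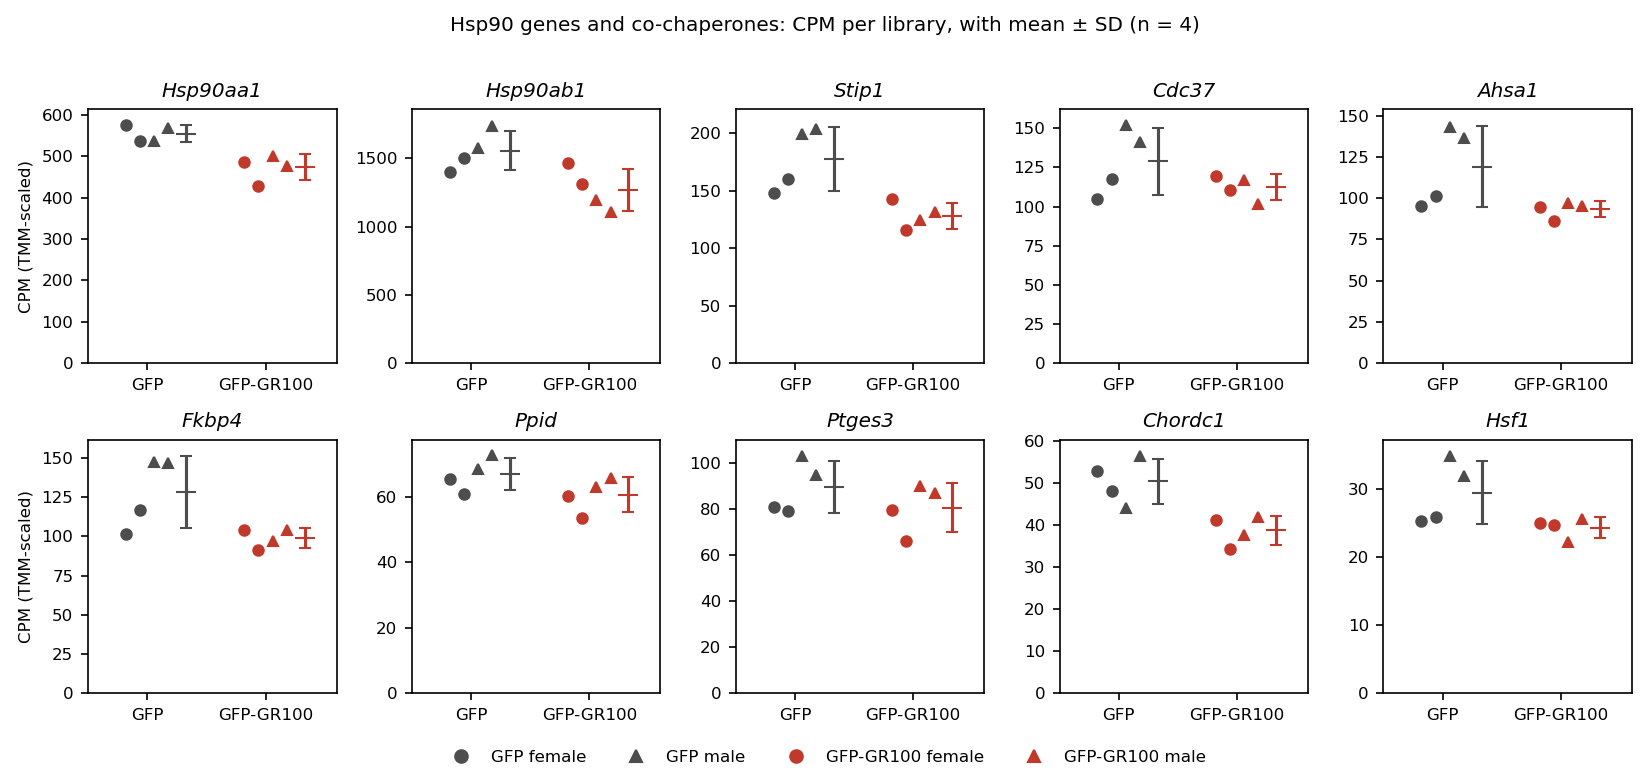
CPM of each gene per library, by group, with females as circles, males as triangles and bars for mean ± SD (n = 4), on axes that start at 0. The GFP-GR100 values of Hsp90aa1, Stip1 and Chordc1 lie below all their GFP values, and GFP males stand above GFP females for every gene but Hsp90aa1 and Chordc1.

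The Hsp90 genes themselves had small differences. Hsp90aa1, on mm10 chromosome 12 from 110690605 to 110702728, was at 576, 536, 538 and 569 CPM in GFP replicates 1 to 4 and at 487, 428, 500 and 477 CPM in GFP-GR100 replicates 1 to 4. Its groups did not overlap, its GFP libraries lay close together, and the sexes within each group overlapped. The log2 fold change was -0.23 (SE 0.09, edgeR adjusted p = 0.223). Hsp90ab1, on chromosome 17 from 45567775 to 45573271, was at 1403, 1500, 1580 and 1739 CPM in GFP and at 1465, 1311, 1196 and 1104 CPM in GFP-GR100. The highest GFP-GR100 library, a female, lay above the lowest GFP library, also a female. The other GFP-GR100 female and both GFP-GR100 males lay below every GFP library. Its log2 fold change was -0.30 (SE 0.11, adjusted p = 0.226). The pair are close relatives with processed copies elsewhere in the genome, and how reads that fit several places were counted is not stated, so their exact levels are uncertain.

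Of the co-chaperones that dock on the tail of Hsp90 through tetratricopeptide repeats, Stip1 differed most. Stip1, on chromosome 19 from 7020696 to 7040026, was at 147.9, 160.1, 198.8 and 203.9 CPM in GFP and at 142.4, 115.4, 124.2 and 131.0 CPM in GFP-GR100. No CPM values overlapped, but the GFP females stood nearer to GFP-GR100 than the GFP males did. In deposited RPKM the groups did overlap, with GFP 1 at 62.6 and GFP-GR100 1 at 67.4. Stip1 fell by 27.8% in mean CPM, a log2 fold change of -0.46 (SE 0.10, edgeR adjusted p = 0.0364). The call did not hold without GFP 2 (adjusted p = 0.0768), GFP 3 (0.0949), GFP 4 (0.182), GFP-GR100 2 (0.184), GFP-GR100 3 (0.166) or GFP-GR100 4 (0.0767). The direction was the same in all 19 alternative analyses, of which 8 called it.

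Fkbp4, on chromosome 6 from 128429735 to 128438677, was at 101.4, 116.9, 147.2 and 146.7 CPM in GFP and at 103.9, 91.1, 96.8 and 103.7 CPM in GFP-GR100. Only the first GFP female fell within the range of GFP-GR100. The log2 fold change was -0.36 (SE 0.10, edgeR adjusted p = 0.0962). Leaving out 1 library at a time gave adjusted p from 0.0402 (without GFP 1, the female that overlapped) to 0.365 (without GFP 4), and only the first of these 8 fits called it. Ppid, also known as cyclophilin 40, on chromosome 3 from 79591342 to 79603650, differed least of all members. It was at 65.4, 60.9, 68.5 and 72.7 CPM in GFP and at 60.3, 53.5, 63.0 and 65.7 CPM in GFP-GR100, with groups that overlapped (log2 fold change -0.14, SE 0.08, adjusted p = 0.392).

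The co-chaperones that bind Hsp90 without such repeats were spread over the same range. Chordc1, a zinc-binding co-chaperone also called morgana, on chromosome 9 from 18292267 to 18314000, was at 53.0, 48.3, 44.3 and 56.4 CPM in GFP and at 41.2, 34.5, 37.8 and 42.0 CPM in GFP-GR100. The groups did not overlap, although GFP 3 came near the highest GFP-GR100 library. The log2 fold change was -0.38 (SE 0.10, edgeR adjusted p = 0.0727). Leaving out 1 library at a time gave adjusted p from 0.0237 (without GFP 3, the library nearest to GFP-GR100) to 0.324 (without GFP-GR100 2), and only the first of these 8 fits called it. Ahsa1, on chromosome 12 from 87266746 to 87273997, was at 95.3, 101.0, 143.4 and 136.7 CPM in GFP and at 94.8, 86.1, 96.9 and 95.1 CPM in GFP-GR100. Its GFP-GR100 libraries and GFP females lay together, apart from both GFP males (log2 fold change -0.33, SE 0.10, adjusted p = 0.116).

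Cdc37, on chromosome 9 from 21138541 to 21149906, was at 104.7, 117.6, 151.8 and 141.0 CPM in GFP and at 119.8, 110.8, 117.2 and 101.5 CPM in GFP-GR100. As for Ahsa1, only the GFP males stood apart, and the log2 fold change was -0.18 (SE 0.11, edgeR adjusted p = 0.426). Ptges3, on chromosome 10 from 128058954 to 128077272, was at 80.8, 79.1, 102.8 and 94.7 CPM in GFP and at 79.3, 65.9, 89.9 and 86.9 CPM in GFP-GR100. Here males were above females in both groups, and the log2 fold change was -0.15 (SE 0.08, adjusted p = 0.397).

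Hsf1, on chromosome 15 from 76477445 to 76500972, was at 25.2, 25.9, 34.8 and 31.8 CPM in GFP and at 24.9, 24.7, 22.1 and 25.5 CPM in GFP-GR100. Again the GFP males were the only libraries that stood apart, and the log2 fold change was -0.26 (SE 0.10, edgeR adjusted p = 0.244). Of 25 other genes listed as Hsf1 targets, 2 fell and 0 rose, and at an unadjusted p under 0.05 the list held 13 lower genes and 0 higher. Over all tested genes 0.324% fell and 2.19% rose, and 7.37% were lower and 8.23% higher at the unadjusted threshold. The log2 fold change was negative for 24 of the 25, and its median was -0.22. Among the 10836 tested genes with a mean of at least 10 CPM it was negative for 7250 (median -0.06). Of those 10836, 1114 were lower and 535 higher at the unadjusted threshold. Hspa8, the constitutive Hsp70, was at 665.7, 683.1, 818.8 and 969.5 CPM in GFP and at 575.7, 471.9, 501.6 and 462.5 CPM in GFP-GR100. Its p was the smallest of the list (log2 fold change -0.63, SE 0.12, adjusted p = 0.0139), and the call was lost without GFP 4 (0.0668), GFP-GR100 2 (0.0765) or GFP-GR100 3 (0.0806). It was also lost with limma-trend on either RPKM scale, and 14 of the 19 alternative analyses called Hspa8.

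Hsph1, the Hsp110 that recharges Hsp70 with ATP, was at 336.0, 310.3, 336.1 and 426.6 CPM in GFP and at 285.8, 240.7, 228.9 and 246.1 CPM in GFP-GR100 (log2 fold change -0.49, SE 0.11, edgeR adjusted p = 0.0398). Without any 1 of GFP 1, GFP 3, GFP 4 and GFP-GR100 2, 3 and 4 its adjusted p lay between 0.0594 and 0.175. Among the 19 alternative analyses, 7 called Hsph1. Outside the rule for named genes, 5 stress-inducible targets of the list were also read, chosen after their values were seen, and 0 of them passed. Dnajb1, an Hsp40 that stimulates Hsp70, was at 63.15 ± 5.67 CPM in GFP and 47.22 ± 5.89 CPM in GFP-GR100 (SD, n = 4 each), with all GFP-GR100 values below GFP (log2 fold change -0.42, SE 0.11, edgeR adjusted p = 0.0610). The small heat shock protein Hspb1 was at 3.65 ± 1.22 and 2.23 ± 0.636 CPM, with groups that overlapped (log2 fold change -0.68, SE 0.18, adjusted p = 0.0853). Hspa1a was at 9.46 ± 1.64 CPM in GFP and 8.97 ± 0.997 CPM in GFP-GR100 (SD, n = 4 each), and Bag3, the co-chaperone that links Hsp70 to autophagy, at 6.90 ± 1.17 and 7.06 ± 1.53 CPM. Their log2 fold changes were -0.08 and 0.03 with edgeR adjusted p of 0.805 and 0.944. Hspa1a has a near-identical neighbour, Hspa1b, with which reads can be shared, and Hspa1b was at 9.17 ± 1.52 and 7.55 ± 0.900 CPM (log2 fold change -0.28, edgeR adjusted p = 0.350).

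**Figure D3:**
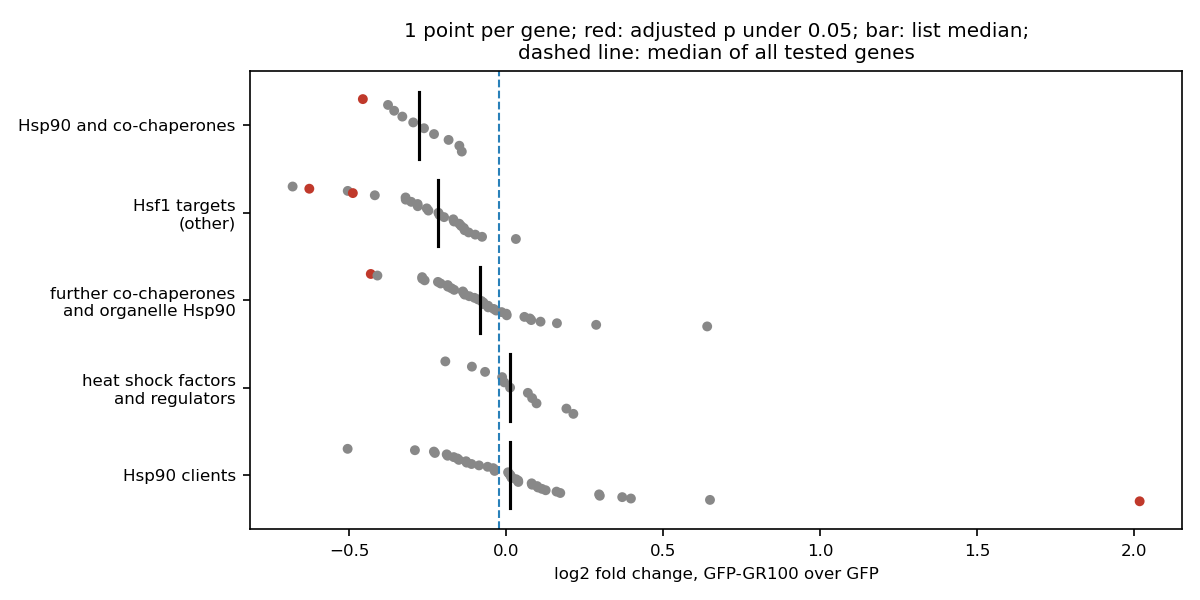
Log2 fold changes (GFP-GR100 relative to GFP) of the 10 members and of 4 related lists, 1 point per tested gene, red where the adjusted p was under 0.05, with a bar at each list's median and a dashed line at the median of all tested genes (-0.02). The members (median -0.28) and the other Hsf1 targets (median -0.22) lie mostly left of the dashed line, and the Hsp90 clients (median 0.01) lie around it apart from Eif2ak2 at 2.02.

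The promoters were compared because Hsf1 acts through repeats of nGAAn in alternating direction, called heat shock elements. RefSeq promoter windows on GRCm38.p6 (mm10), from 250 bases before to 50 bases after the start of the transcript, were found for 6 of the 10 members. No window was matched for Hsp90aa1, Hsp90ab1, Ppid and Hsf1. Units of GAANNTTC or TTCNNGAA, which read the same on both strands, stood in the windows of Cdc37, Chordc1 and Fkbp4, and 15.1% of all 32851 windows of this length hold one. Longer elements, in which GAA, TTC and GAA (or TTC, GAA and TTC) follow each other with NN between them and which contain the short units, occurred in 1 of the 6 windows, that of Chordc1, against 0.603% of all windows. Shown are the window of Chordc1, those of Fkbp4 and Cdc37 with a single short unit, and that of Stip1, the member that fell, with none. Capitals mark the short units. Their positions are chr9:18292017-18292316 on the + strand for Chordc1, chr6:128438607-128438906 on the - strand for Fkbp4, chr9:21149885-21150184 on the - strand for Cdc37 and chr19:7039977-7040276 on the - strand for Stip1, each written 5′ to 3′ along the gene.
Chordc1: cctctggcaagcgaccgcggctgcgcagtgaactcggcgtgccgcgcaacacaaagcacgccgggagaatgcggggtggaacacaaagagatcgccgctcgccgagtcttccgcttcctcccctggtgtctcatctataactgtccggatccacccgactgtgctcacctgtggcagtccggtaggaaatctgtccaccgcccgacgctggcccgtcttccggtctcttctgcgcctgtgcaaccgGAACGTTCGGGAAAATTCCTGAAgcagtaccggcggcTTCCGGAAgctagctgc
Fkbp4: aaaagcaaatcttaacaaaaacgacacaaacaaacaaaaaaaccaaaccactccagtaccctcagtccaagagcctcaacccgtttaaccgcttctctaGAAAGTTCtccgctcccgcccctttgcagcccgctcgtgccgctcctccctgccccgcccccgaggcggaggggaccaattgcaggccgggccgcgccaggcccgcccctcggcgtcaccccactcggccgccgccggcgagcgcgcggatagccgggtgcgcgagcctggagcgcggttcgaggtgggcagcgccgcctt
Cdc37: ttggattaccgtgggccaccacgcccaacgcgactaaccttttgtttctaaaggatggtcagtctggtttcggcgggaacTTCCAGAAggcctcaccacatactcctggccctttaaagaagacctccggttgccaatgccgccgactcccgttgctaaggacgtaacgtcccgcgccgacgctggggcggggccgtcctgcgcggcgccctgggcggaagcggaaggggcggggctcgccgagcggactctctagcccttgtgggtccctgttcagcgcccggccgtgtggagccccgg
Stip1: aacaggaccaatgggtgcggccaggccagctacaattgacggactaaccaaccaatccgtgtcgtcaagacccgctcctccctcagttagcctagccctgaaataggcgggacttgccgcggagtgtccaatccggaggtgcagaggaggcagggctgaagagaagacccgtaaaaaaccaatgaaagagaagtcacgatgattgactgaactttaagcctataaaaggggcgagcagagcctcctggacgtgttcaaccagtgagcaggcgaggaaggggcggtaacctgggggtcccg

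In the Chordc1 window the short units overlap to form 1 unbroken run from base -4 to base 19 counted from the transcript start, followed by a further unit at bases 34 to 41. The unit of Fkbp4 lies at bases -151 to -144 and that of Cdc37 at bases -170 to -163. The log2 fold changes of these genes were -0.38, -0.36 and -0.18. Those of the members with no short unit in the window were -0.46 for Stip1, -0.33 for Ahsa1 and -0.15 for Ptges3. The motif CCAAT, searched on both strands, was in the windows of Stip1, Fkbp4 and Cdc37 and in 37.4% of all windows. The endoplasmic reticulum stress element, CCAAT and CCACG spaced 9 bases apart, was in 0 of the 6 windows and in 0.119% of all. These matches describe letters only, and factor binding was not measured.

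When the sexes were read apart, the members were split into 2 sets by the same values that the tests below use. For Hsp90ab1, Stip1, Cdc37, Ahsa1, Fkbp4 and Hsf1 the log2 fold change was between -0.66 and -0.42 in males and between -0.26 and 0.05 in females. For Hsp90aa1, Ppid, Ptges3 and Chordc1 the values of the sexes were closer, from -0.33 to -0.13 in males and from -0.42 to -0.14 in females. Those first 6 fell in males (edgeR adjusted p from 0.00766 to 0.0373, 2 against 2 libraries with the spread shared over all 8), where 3.78% of tested genes fell. In females 0 members fell, and 0.0524% of tested genes did, while 3 members were lower at an unadjusted p under 0.05, where 4.3% of tested genes were. The test of the difference between sexes called 0 members (0.0524% of tested genes were called). It gave an unadjusted p between 0.0111 and 0.0302 for the same 6 genes, where 16.4% of tested genes had one under 0.05, with adjusted p from 0.176 to 0.253. Marker lists of neurons also had lower median log2 fold changes in males than in females. These were -0.20 and 0.14 for excitatory neurons, -0.185 and 0.08 for hippocampus, and -0.15 and 0.08 for inhibitory neurons. For oligodendrocyte markers the male median was the higher, at -0.16 against -0.29. Whether these shifts are linked to those of the members was not tested.

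**Figure D4:**
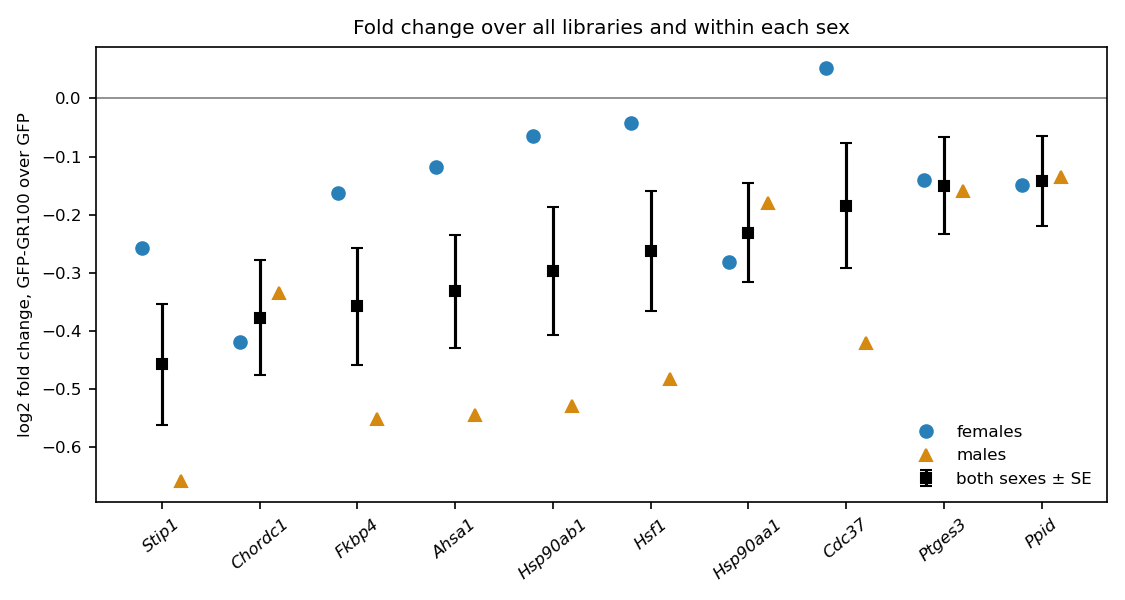
Log2 fold changes (GFP-GR100 relative to GFP) of each member, with black squares and SE bars for all 8 libraries, blue circles for females and orange triangles for males. Males lie well below females for Stip1, Fkbp4, Ahsa1, Hsp90ab1, Hsf1 and Cdc37, and the sexes lie close together for Chordc1, Hsp90aa1, Ptges3 and Ppid.

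Within the GFP group, 5 of these genes were already higher in males than in females. The log2 difference was 0.51 for Ahsa1 (edgeR adjusted p = 0.0152), 0.43 for Fkbp4 (0.0314), 0.40 for Cdc37 (0.0413), 0.39 for Stip1 (0.0491) and 0.38 for Hsf1 (0.0428), and 4.92% of tested genes were called higher there. Within GFP-GR100, 0 members were called higher in males, where 0.0381% of tested genes were. The share of counts at rRNA loci differed between the same libraries, lower in GFP males than in GFP females and higher in GFP-GR100 males than in GFP-GR100 females, so that a difference between sexes and one of this share cannot be told apart here. With that share in the model, 0 members fell within males and 0 within females (1 and 0 at an unadjusted p under 0.05), and the test of the difference between sexes called 0 genes of all tested, with 377 at an unadjusted p under 0.05 in place of 3445. The covariate runs nearly along the sex-by-group split, so these lost calls do not show that the difference is absent. The male minus female difference in log2 fold change was then -0.48 for Hsf1, -0.25 for Ahsa1, -0.24 for Stip1, -0.19 for Hsp90ab1, -0.0098 for Cdc37 and -0.0042 for Fkbp4, where it had been between -0.47 and -0.39 for these 6.

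The group difference was therefore also read among libraries of like rRNA share, which sets females of one group against males of the other, so that group and sex cannot be told apart in either comparison. Among the 4 libraries of low share, GFP-GR100 females against GFP males, 5 members were called lower, where 4.89% of tested genes were, and all 10 were below 0. These were Stip1 (log2 fold change -0.64, edgeR adjusted p = 0.0111), Ahsa1 (-0.63, 0.00615), Fkbp4 (-0.59, 0.0130), Ptges3 (-0.44, 0.0324) and Hsf1 (-0.42, 0.0355). Among the 4 of high share, GFP-GR100 males against GFP females, 0 members were called, where 2.93% of tested genes were called lower. There the log2 fold changes ran from -0.34 for Chordc1 and Hsp90ab1 to 0.14 for Ptges3, with Ahsa1 at -0.03, Cdc37 at -0.02 and Ppid at 0.03. At low and at high share, Hsp90aa1 was at -0.27 and -0.19, Chordc1 at -0.41 and -0.34, and Hsp90ab1 at -0.26 and -0.34, the 3 members with the smallest gaps. With the rRNA share as a covariate over all 8 libraries, 5 members fell, where 226 of the 20987 tested genes fell against 68 without it, namely Stip1 (adjusted p = 0.00693), Fkbp4 (0.0163), Ahsa1 (0.0173), Hsp90ab1 (0.0372) and Chordc1 (0.0446).

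The balance between the Hsp90 genes differed along the same split of libraries. The ratio of Hsp90ab1 to Hsp90aa1 RPKM was 3.19, 3.67, 3.85 and 4.01 in GFP replicates 1 to 4 and 3.94, 4.02, 3.14 and 3.03 in GFP-GR100 replicates 1 to 4. The means were 3.68 ± 0.354 and 3.53 ± 0.521 (SD, n = 4 each), a difference within the spread of either group. The 4 libraries with the highest share of counts at rRNA loci had the 4 lowest ratios, and these were the females of GFP and the males of GFP-GR100.

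**Figure D5:**
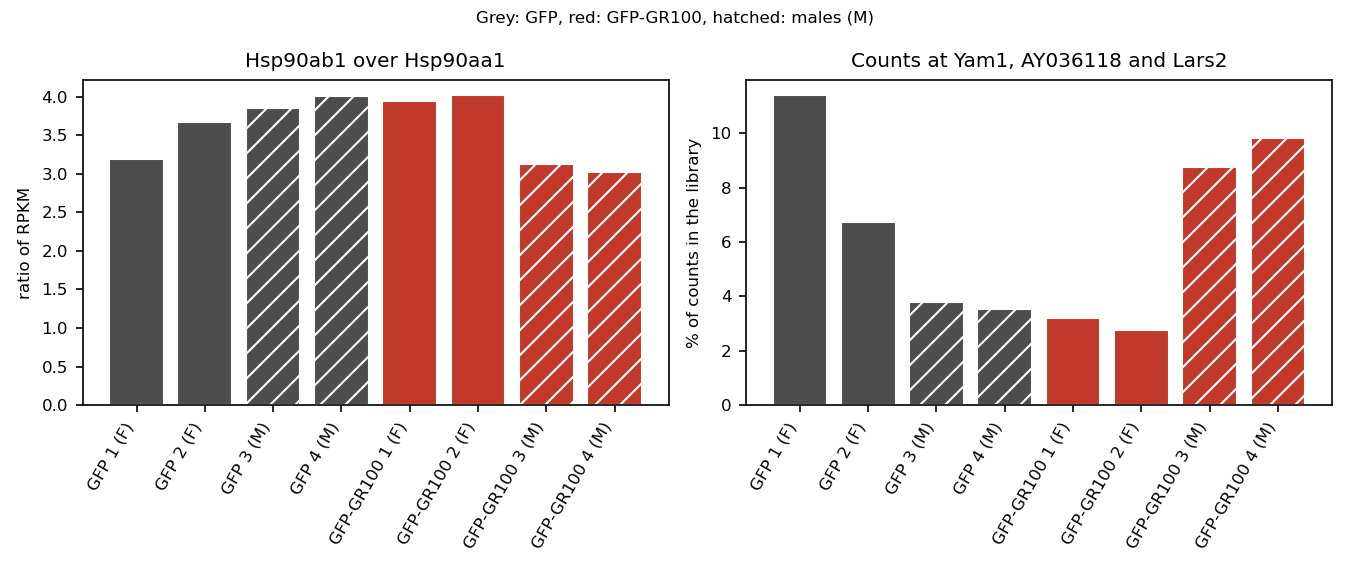
Ratio of Hsp90ab1 to Hsp90aa1 RPKM (left) and share of counts, in percent, taken by Yam1, AY036118 and Lars2 together (right) in each library, with GFP in grey, GFP-GR100 in red and males hatched. The ratio is lowest, from 3.03 to 3.67, in the 4 libraries whose rRNA share is highest, from 6.74% to 11.4%.

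Among 34 further co-chaperones and Hsp90 relatives of other compartments, 1 fell and 0 rose. Hsp90b1 (Grp94), the Hsp90 of the endoplasmic reticulum, was at 366.2 ± 53.15 CPM in GFP and fell to 269.6 ± 21.28 CPM in GFP-GR100 (SD, n = 4 each; log2 fold change -0.43, SE 0.10, edgeR adjusted p = 0.0298). For 26 of the 34 the log2 fold change was negative (median -0.09), and at an unadjusted p under 0.05 the list held 7 lower genes and 1 higher. Over all tested genes 0.324% fell and 2.19% rose, and 7.37% were lower and 8.23% higher at the unadjusted threshold. The log2 fold change was negative for 11449 of all 20987 (median -0.02). Among the 10836 tested genes with a mean of at least 10 CPM it was negative for 7250 (median -0.06). Of those 10836, 1114 were lower and 535 higher at the unadjusted threshold, so this list lay near that background. The call of Hsp90b1 was lost without any 1 of GFP 1, 2, 3 and 4 and GFP-GR100 2 and 3, with adjusted p from 0.0507 to 0.168. Among the 19 alternative analyses, 9 called Hsp90b1. Of 11 tested heat shock factors and regulators 0 passed, also at an unadjusted p under 0.05, with a median of 0.01. Of all tested genes 2.52% passed in either direction. The smallest p among these 11 was that of the nucleoporin Nup98, at 18.9 ± 5.13 CPM in GFP and 16.6 ± 3.86 CPM in GFP-GR100 (edgeR adjusted p = 0.460).

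Hsp90 clients as a list showed no common shift. Of 39 clients, 1 rose and 0 fell, 4 lay on either side at an unadjusted p under 0.05, and the median log2 fold change was 0.01. These counts are near the shares over all tested genes, of which 2.19% rose and 7.37% were lower and 8.23% higher at the unadjusted threshold. The gene that rose was Eif2ak2, which encodes the RNA-activated kinase PKR and is itself induced by interferon, from 6.11 ± 1.82 to 24.3 ± 1.77 CPM (log2 fold change 2.02, SE 0.17, edgeR adjusted p = 7.96e-05).

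The genes whose levels followed the members most closely were read as a description, with no test. The members' pattern was the mean of their scaled log2 CPM, and 10836 genes with a mean of at least 10 CPM were ranked by Pearson's r with it over the 8 libraries, which share the group difference and the rRNA share. The 5 highest genes outside the members were Manf, a secreted protein of the endoplasmic reticulum stress response (r = 0.997), Ptplad1 (0.996), the protein disulphide isomerase Pdia3 (0.995), Scrn3 (0.988) and Pdxdc1 (0.987). After the mean of each sex and group was subtracted, r was 0.990, 0.955, 0.979, 0.943 and 0.911 in that order. Each such mean rests on 2 libraries, and the 5 genes were picked by r over the same 8. These values therefore add no support of their own. Each member is itself part of the pattern. Of the members, Stip1 had the highest r with it over the 8 libraries (0.987) and Chordc1 the lowest (0.752). After the same subtraction r was 0.009 for Hsf1 and 0.325 for Cdc37, and between 0.631 (Chordc1) and 0.943 (Stip1) for the others.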

How the data were processed

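RNA from 8 mouse brains was made into stranded total-RNA libraries and sequenced from both ends, per the labels' protocols. The deposited table gives a count per gene and library and an RPKM value. TopHat2 version 2.1.0, CASAVA, DESeq2, R version 3.4.1 and mm10 are named per the submitters' processing notes; no source used here gives the gene counter, the annotation or the use of strand. RPKM as deposited was scaled by the authors to the summed counts, since the library size that it implies was 1.00023 to 1.00024 times their sum. Totals of 65880460 to 89113010 make 3 counts 0.0328 to 0.0495 CPM. Each library is a different mouse.

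Counts were fitted with edgeR version 4.0.16 (limma 3.58.1, R 4.3.3) on genes kept by filterByExpr (minimum count 10, total 15), with TMM scaling, sex and group in the model, the robust quasi-likelihood test and Benjamini-Hochberg adjustment over 20987 genes at 0.05. Each SE is the log2 fold change over the square root of F. Effects within a sex were contrasts of 4 sex-by-group means. The fit was tested on simulated data. Promoters are from RefSeq tables on GRCm38.p6. The members, gene lists and alternatives, DESeq2 version 1.42.0 among them, were chosen with earlier results of these data known. Named genes are the members, up to 4 called genes per list (or that with the smallest p) and the 5 genes most like the members. The comparisons at like rRNA share and the alternatives for the effects within each sex were added after seeing the data. Replicates are numbered in accession order and pair no mice.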

Additional observations from a re-analysis of the deposited data

How the results depend on the processing

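All 10 members kept a log2 fold change below 0 in each of 19 alternatives to the fit of GFP-GR100 against GFP, and 0 were called higher in any. The number of members called lower, 1 in the report, was 4 with no filter on low counts, 5 with the rRNA share as a covariate, 3 with DESeq2, and 0 under the 1 CPM minimum for the mean, with no sex covariate or with limma-trend on log2(RPKM + 0.1) or log2(RPKM + 1). It was 0 to 2 when each library was left out in turn. The number of members lower at an unadjusted p under 0.05, 7 in the report, also moved. It was 8 with the rRNA share, 3 with limma-trend on either RPKM scale and 4 to 7 when each library was left out. Without GFP 3 and GFP-GR100 4 together it was 5. The number of all genes called lower, 68 in the report, was 361 with no filter, 36 under the 1 CPM minimum, 226 with the rRNA share, 35 with no sex covariate, 194 with DESeq2, 32 and 30 with limma-trend on the same RPKM scales, 115 without GFP 3 and GFP-GR100 4 together, and 19 to 77 when each library was left out. The number called higher, 460, was 1168 with no filter and 699 with DESeq2, and 304 to 514 when each library was left out. Median-of-ratios size factors, limma-voom and leaving out the rRNA loci moved no count of members. The cause of these shifts was not tested.

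The number of genes called for the difference between sexes, 11, was 1353 with no filter, 577 with DESeq2 and 0 with the rRNA share as a covariate (377 at an unadjusted p under 0.05), and 1 to 828 when each library was left out. Members called lower within males, 6, were 0 with the rRNA share and 3 to 5 when each library was left out, 3 of them without GFP-GR100 4. A lone library of a sex and group is then assumed to vary like the others. With the rRNA share the difference between sexes went from -0.47 to -0.0098 for Cdc37, from -0.39 to -0.0042 for Fkbp4 and from -0.46 to -0.19 for Hsp90ab1. For members whose difference was near 0 its sign was not stable. For Ppid it was 0.01 in the model of the report, and -0.028, -0.29, -0.024 and -0.0082 with no filter, the rRNA share, the rRNA loci left out and DESeq2, and with the rRNA share it was -0.14 for Hsp90aa1 and -0.33 for Chordc1. Leaving out each library gave -0.085 to 0.067 for Ppid, -0.16 to 0.083 for Ptges3, -0.11 to 0.25 for Chordc1 and -0.0035 to 0.16 for Hsp90aa1. No paired analysis was possible because the labels number the mice individually and pair none across groups. The largest shift of the median of tested genes by another scaling was 0.0651 on the log2 scale.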
